A study of Mus musculus with 6 samples.

Results

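The cytochrome P450 (Cyp) genes of the corneal epithelium were examined in 6 bulk RNA-seq libraries. The members were the rows of the deposited gene table whose symbol starts with Cyp followed directly by a digit, leaving out Cyp51, Cyp26b1 and Cyp4f39, which gave 68 of 17866 genes. All 68 carried the P450 domain in the table's own Pfam annotation, which the choice by symbol did not use. Of the 68, 48 had more than 3 estimated counts in at least 1 library, 20 stayed at or under 3 counts in every library, and 30 had enough counts for a test. The libraries came from separated corneal epithelium of C57BL/6 mice at 6 months of age, 3 labelled WT and 3 labelled Rela-/- (KO). The methods describe the samples of a genotype as biologically independent. Rela, which encodes the p65 subunit of NF-κB, was removed in KO mice with Krt14-Cre acting on Rela f/f. This Cre is active in K14-expressing epithelia, including limbus, conjunctiva and meibomian glands besides the cornea, so the KO label describes a loss in epithelial cells and not in the whole animal. The alleles carried by the WT mice are not given in the labels.

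P450 enzymes are heme proteins that insert an oxygen atom into a substrate, with electrons passed on from NADPH by P450 oxidoreductase in the endoplasmic reticulum or by ferredoxin in mitochondria. Families 1 to 3 oxidize foreign compounds and also fatty acids, several members of family 2 turn arachidonic acid into epoxides, family 4 hydroxylates the end of fatty acid chains, and a further group makes or breaks down steroids, bile acids and vitamin D. In surface epithelia these enzymes are known for shaping lipid mediators and for handling chemicals that reach the surface.

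Library totals lay between 20158404 and 20880347 estimated counts. At this depth 3 counts corresponded to between 0.137 and 0.152 CPM, the scaled count divided by library size, and such limits cover counting error only. Rela had 1871, 1844 and 1855 counts in WT against 318, 223 and 313 in KO, so the labels and the targeted gene went together. The genes taken as corneal epithelial markers, Krt12, Pax6, Aldh3a1 and Krt5, were present in all libraries and all 4 were lower in KO. The summed level of the 4 fell from between 84260 and 87730 CPM in WT to between 20380 and 22900 CPM in KO. In KO the largest part of this sum came from the keratin gene Krt5, at 10310 to 10720 CPM. The bulk libraries cannot tell fewer cells of a type apart from less RNA per cell.

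Of the 30 Cyp genes tested, 24 differed at an adjusted p of 0.05 (edgeR quasi-likelihood test, Benjamini-Hochberg adjustment over 13305 genes), 10 with higher and 14 with lower counts in KO. Across all genes tested, 62.0% differed by the same rule, 31.8% higher and 30.2% lower in KO. The stricter threshold of 0.001 together with a 2-fold change, which is the one used with these data originally, left 16 members, 8 higher and 8 lower, where 19.8% of all genes passed (11.6% higher and 8.24% lower). The groups did not overlap for 24 members, 10 higher and 14 lower, and for 68.7% of all genes (34.7% higher and 33.9% lower). The 16 members at the stricter threshold became 8 without WT replicate 1, where 32 were tested, and 9 without KO replicate 2, where 31 were tested. The median log2 fold change of the 30 was -0.41, also with the genes that stayed at or under 3 counts throughout 1 group set to their bound, and that of all genes tested was 0.01. These shares are no evidence about the family, because 7 of the 30 (Cyp1b1, Cyp24a1, Cyp2c65, Cyp4a14, Cyp4b1, Cyp4f18 and Cyp4f40) had fewer than 10 counts in every library of 1 group and passed the filter only through the other. The levels of the tested members in each library are drawn in the plot by library.

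**Figure D1:**
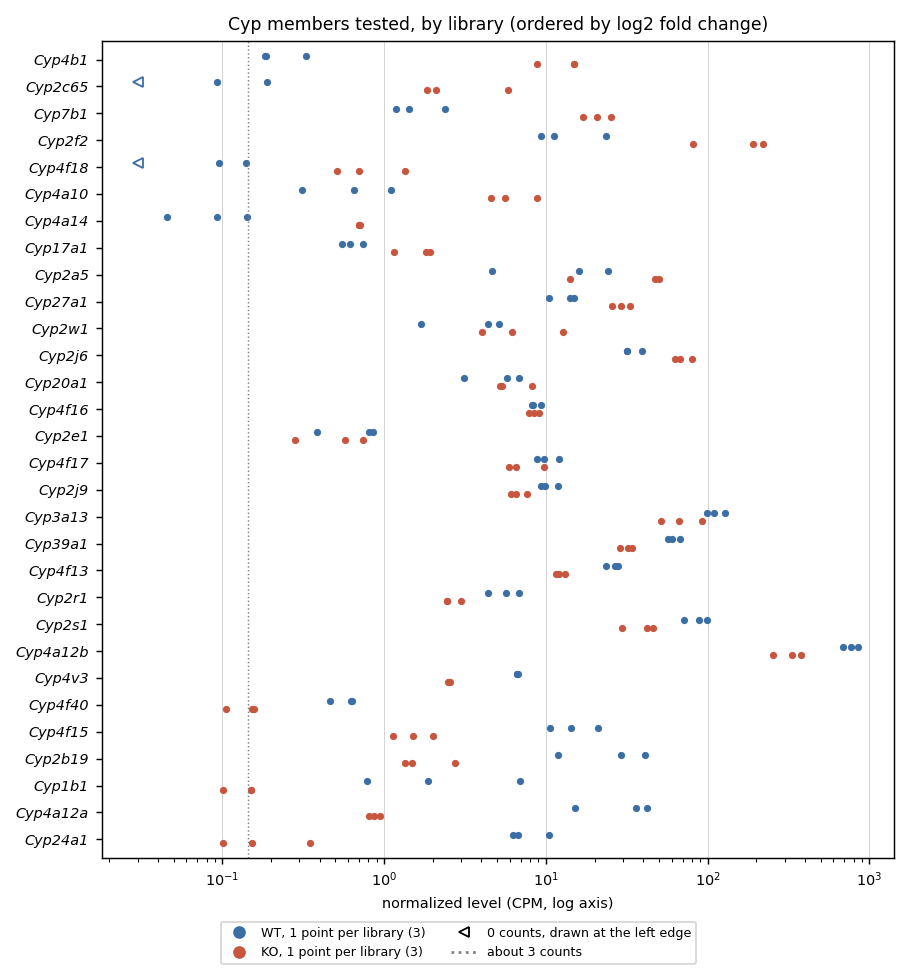
Normalized level (CPM, log axis) of the 30 tested Cyp genes, 1 point per library, with WT in blue and KO in red and genes ordered by log2 fold change. The groups did not overlap for 24 of the 30 genes, from Cyp24a1 at the bottom, lower in every KO library, to Cyp4b1 at the top, higher in every KO library.

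The libraries contained fewer Cyp reads in KO. The 68 genes held 0.138%, 0.118% and 0.140% of all counts in the WT libraries and 0.0818%, 0.0745% and 0.0971% in the KO libraries. The groups did not overlap. Per length, the summed level of the 68 was 538 ± 50.6 FPKM in WT and 369 ± 57.0 FPKM in KO (mean with SD over 3 libraries each). The fatty acid hydroxylase pair Cyp4a12a and Cyp4a12b made up 64.1% ± 1.70 of this sum in WT and 35.6% ± 7.75 in KO. Without the pair the sum was 193 ± 16.5 FPKM in WT and 239 ± 52.8 FPKM in KO, and the ranges overlapped, with 178 to 277 FPKM in KO and 176 to 208 FPKM in WT.

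The order of the levels also differed between the genotypes. In WT, Cyp4a12b stood first at 332 ± 31.7 FPKM, followed by Cyp3a13 at 39.2 ± 5.91 and Cyp2s1 at 33.9 ± 5.98 FPKM (mean ± SD, n = 3), and the libraries of Cyp3a13 and Cyp2s1 overlapped. Cyp39a1 came next at 20.5 ± 2.18 FPKM and Cyp4f13 at 17.2 ± 1.13 FPKM. In KO, Cyp4a12b was again first at 130 ± 26.1 FPKM, and Cyp2f2 was second at 86.6 ± 37.4 FPKM, ranging from 44.4 to 116 FPKM. Cyp2f2 thus overlapped Cyp4a12b, which ranged from 101 to 151 FPKM in KO. Cyp3a13, Cyp2a5 and Cyp2j6 followed at 22.7, 20.8 and 18.6 FPKM with overlapping ranges. Cyp2f2 made up 1.53% ± 0.684 of the summed Cyp level in WT and 22.9% ± 7.65 in KO.

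**Figure D2:**
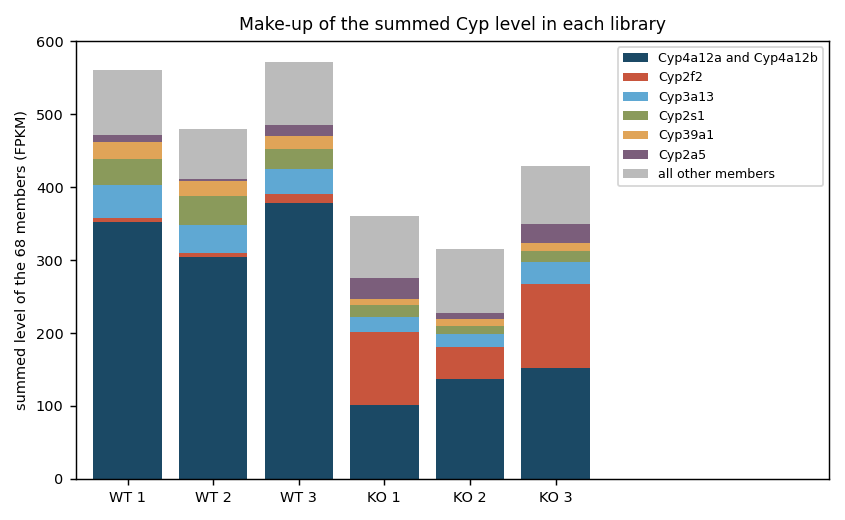
Summed FPKM of the 68 Cyp genes in each of the 6 libraries, divided into the 6 genes of highest mean level (Cyp4a12b drawn together with Cyp4a12a) and all other members. The dark blue block of the Cyp4a12 pair takes 62.86% to 66.04% of the bar in WT and 28.0% to 43.5% in KO, while the red Cyp2f2 block takes 0.968% to 2.29% in WT and 14.1% to 27.6% in KO.

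Family 4 comprised 17 members, of which 12 were tested, 4 being higher and 6 lower in KO. Across all genes tested, 31.8% were higher and 30.2% lower. Cyp4a14, Cyp4b1, Cyp4f18 and Cyp4f40 passed the filter only through 1 group, so these counts are no result about the family. The most abundant, Cyp4a12b (gene 13118, GRCm38 chromosome 4, positions 115411624 to 115439034, plus strand), is an omega-hydroxylase of arachidonic acid. It had 16753, 14843 and 18055 counts in WT against 5022, 6638 and 7600 in KO. Every KO library lay below every WT library, and the log2 fold change was -1.26 (SE 0.161, edgeR adjusted p = 2.29e-04). Its neighbour and close copy Cyp4a12a (gene 277753, chromosome 4, positions 115299046 to 115332815, plus strand) was at 792, 328 and 896 counts in WT against 17.0, 16.1 and 18.8 in KO. The log2 fold change of Cyp4a12a was -5.16 (SE 0.431, edgeR adjusted p = 2.49e-05). The 2 transcripts are hard to tell apart with reads of 50 bases, since 48.9% of the 50-base windows of Cyp4a12a also occur in Cyp4a12b. Counted as 1 gene, the pair had a log2 fold change of -1.31 (SE 0.164, edgeR adjusted p = 2.04e-04), which does not depend on how reads were split between them.

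Both other tested Cyp4a genes rose. Cyp4a10 (gene 13117, chromosome 4, positions 115518287 to 115533649, plus strand) and Cyp4a14 (gene 13119, chromosome 4, positions 115473790 to 115499076, plus strand) encode fatty acid omega-hydroxylases best known as targets of PPARα. Cyp4a10 had 6.78, 23.6 and 13.7 counts in WT against 90.2, 177 and 112 in KO, a change of 3.17 on the log2 scale (SE 0.424, edgeR adjusted p = 3.01e-04). Cyp4a14 had 1, 2 and 3 counts in WT and 14 counts in each KO library, which was at least 5.03-fold higher (edgeR adjusted p = 8.16e-04). Cyp4a10 shared 29.8% of its windows with other genes, mostly with Cyp4a32, and counting Cyp4a10 and Cyp4a32 together gave a log2 fold change of 3.23 (SE 0.427). Ppara itself was lower in KO, with 208, 139 and 144 counts in WT against 37, 26 and 38 in KO. Among the largest rises of the members was that of Cyp4b1 (gene 13120, chromosome 4, positions 115624728 to 115647705, minus strand), a fatty acid and xenobiotic hydroxylase known from lung. Cyp4b1 had 4, 4 and 7 counts in WT against 293, 299 and 176 in KO, a change of 5.75 on the log2 scale (SE 0.344, edgeR adjusted p = 4.33e-06). It passed the filter only through the KO libraries, and the change of Cyp2c65 at 5.03 (SE 0.770) lay within error of it.

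The Cyp4f genes, whose products hydroxylate leukotrienes and other fatty acids, moved less evenly. Cyp4f15 (gene 106648, chromosome 17, positions 32685598 to 32703352, plus strand) was at 456, 226 and 302 counts in WT against 22.5, 30.0 and 40.5 in KO, a change of -3.30 on the log2 scale (SE 0.311, edgeR adjusted p = 4.59e-05). Cyp4f13 (gene 170716, chromosome 17, positions 32924688 to 32947472, minus strand) was at 580, 508 and 587 counts in WT against 260, 229 and 242 in KO. The groups of Cyp4f13 were well separated, by -1.09 on the log2 scale (SE 0.113, edgeR adjusted p = 7.72e-05). Cyp4f40 was near the limit of detection, with 10.2, 13.4 and 13.4 counts in WT against at most 3.13 in KO, at least 3.82-fold lower (edgeR adjusted p = 3.56e-03). Cyp4f16 and Cyp4f17 did not pass. Cyp4f16 had a log2 fold change of -0.02 (SE 0.131) with overlapping groups. Cyp4f17 had -0.47 (SE 0.214, edgeR adjusted p = 0.0893), and it passed in 5 of 15 alternative fits.

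Among the tested Cyp4f genes of the set, which leaves out Cyp4f39, only Cyp4f18 was called higher in KO. It encodes a leukotriene hydroxylase of myeloid cells and had 3.04, 0 and 2.01 counts in WT against 10.1, 27 and 14 in KO, at least 6.11-fold higher (edgeR adjusted p = 3.61e-03), or 4.32-fold without KO replicate 2. Among 8 immune markers, 5 of the 7 tested were also higher in KO, Itgam was lower (log2 fold change -0.60, SE 0.163, edgeR adjusted p = 0.0113) and Cd68 did not pass (0.09, SE 0.149). Lyz2 had at most 2 counts in WT libraries and 125 to 227 in KO libraries, and Ptprc went from between 5 and 13 to between 87 and 123 counts. The summed level of the 8 ranged from 271 to 347 CPM in WT and from 269 to 341 CPM in KO, most of it from Itgam. This sum therefore does not follow the 5 markers that were higher. The part of immune cells in the Cyp4f18 value was not tested. The remaining member, Cyp4v3 (gene 102294, chromosome 8, positions 45305802 to 45333196, minus strand), is a fatty acid hydroxylase whose human counterpart is mutated in a crystalline dystrophy of retina and cornea. It had 144, 144 and 140 counts in WT against 50, 51 and 50 in KO. The groups were well apart, and the log2 fold change was -1.39 (SE 0.156, edgeR adjusted p = 1.15e-04).

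**Figure D3:**
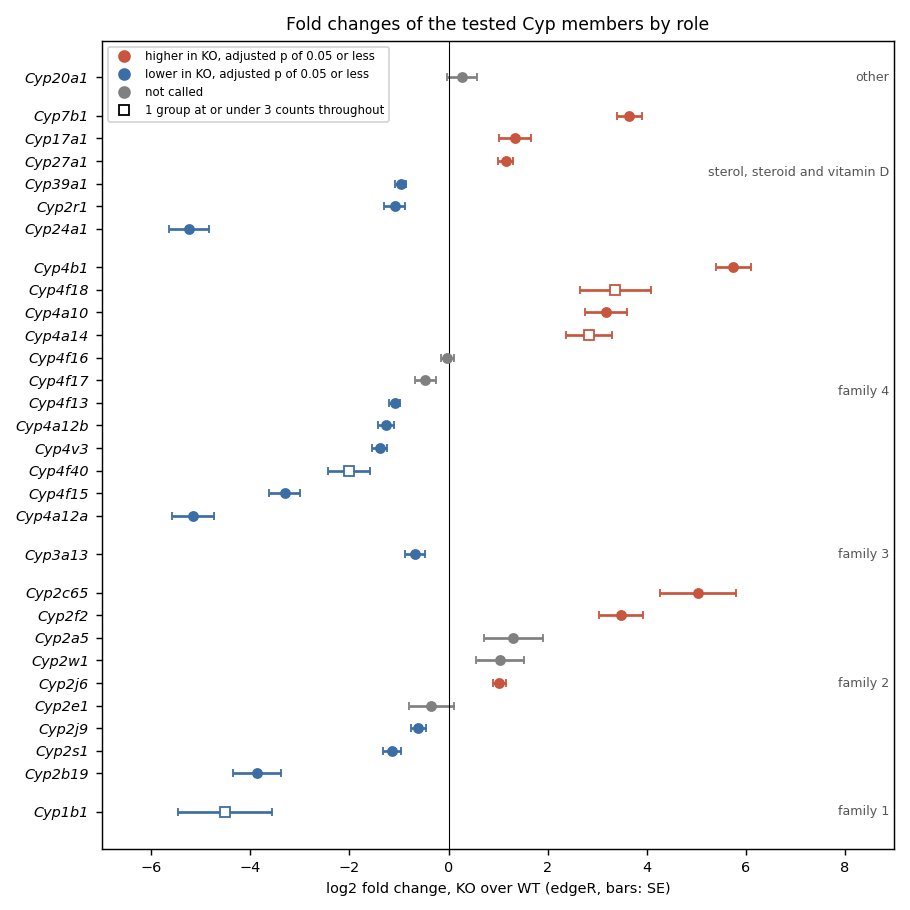
Log2 fold change of KO over WT with its standard error for the 30 tested Cyp genes, grouped by role, with genes called higher in red, lower in blue and not called in grey, and open squares for genes at or under 3 counts throughout 1 group. Family 4 holds both one of the largest rises, Cyp4b1 at 5.75, and one of the largest falls, Cyp4a12a at -5.16, which lies within its error of Cyp24a1 at -5.24.

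Family 2 had 29 members outside the vitamin D enzyme Cyp2r1, and 9 were tested, 3 being higher and 3 lower in KO. This stands beside 31.8% higher and 30.2% lower among all genes tested, and Cyp2c65 passed the filter only through KO. Cyp2f2 (gene 13107, chromosome 7, positions 27119955 to 27133660, plus strand) is the naphthalene-activating enzyme of secretory cells in the airway. It had 204, 241 and 497 counts in WT against 3767, 1628 and 4396 in KO. The lowest KO library was above the highest WT library, and the log2 fold change was 3.48 (SE 0.451, edgeR adjusted p = 2.53e-04). Cyp2c65 (gene 72303, chromosome 19, positions 39061006 to 39093948, plus strand), an epoxide-forming enzyme of gut, had 0, 2 and 4 counts in WT against 41.4, 116 and 37 in KO, a change of 5.03 on the log2 scale (SE 0.770, edgeR adjusted p = 6.16e-04). This value was 4.31 without KO replicate 2 and 5.97 without WT replicate 3. Counted together with Cyp2c66, with which it shared most of its 20.6% of windows found in other genes, the log2 fold change was 5.16 (SE 0.774). Cyp2j6 (gene 13110, chromosome 4, positions 96516138 to 96664119, minus strand), another enzyme of arachidonic acid epoxidation, had 693, 686 and 832 counts in WT against 1581, 1339 and 1263 in KO. This amounted to a log2 fold change of 1.03 (SE 0.129, edgeR adjusted p = 2.12e-04).

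The enzymes of family 2 that fell included the epoxide-forming enzyme of keratinocytes. Cyp2b19 (gene 13090, chromosome 7, positions 26757142 to 26772630, plus strand) was at 634, 256 and 865 counts in WT against 54.0, 27 and 30 in KO. This amounted to a log2 fold change of -3.87 (SE 0.484, edgeR adjusted p = 2.05e-04), while all 5 epidermal markers (Krt1, Krt10, Lor, Flg and Krtdap) were higher in KO and their summed level went from between 15.1 and 20.3 to between 11560 and 23960 CPM. Cyp2s1 (gene 74134, chromosome 7, positions 25802476 to 25816530, minus strand), an enzyme of surface epithelia, had 1923, 2136 and 1503 counts in WT against 907, 587 and 845 in KO, a change of -1.14 on the log2 scale (SE 0.182, edgeR adjusted p = 7.90e-04). Cyp2j9 was lower, with a change of -0.61 on the log2 scale (SE 0.155, edgeR adjusted p = 8.86e-03). The annotated spans of Cyp2j6 and Cyp2j9 overlap by 95.7 kb on the same strand, but no 50-base window of the Cyp2j9 transcripts occurs in another gene, and for Cyp2j6 0.422% do.

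Cyp2a5, Cyp2w1 and Cyp2e1 did not pass. Cyp2a5, an enzyme of liver and nasal epithelium that oxidizes coumarin and nicotine, had 352, 100 and 511 counts in WT against 993, 280 and 944 in KO, so that KO replicate 2 lay within the WT range. This amounted to a log2 fold change of 1.31 (SE 0.591, edgeR adjusted p = 0.0849), and without KO replicate 2 it passed with 1.70 (edgeR adjusted p = 0.0253). It also passed without WT replicate 3 (1.85, edgeR adjusted p = 0.0443). Of the 50-base windows of Cyp2a5, 37.0% occur in other genes, mostly in Cyp2a4, which had at most 1.80 counts in any library. Cyp2w1 had 96.3, 36.2 and 108 counts in WT against 251, 123 and 80.9 in KO, with overlapping groups (log2 fold change 1.03, SE 0.486), and passed without KO replicate 3 (1.34, edgeR adjusted p = 0.0398). Cyp2e1, the ethanol-oxidizing enzyme, had at most 18.7 counts and a log2 fold change of -0.35 (SE 0.459).

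Families 1 and 3 each had 1 tested member. Cyp1b1 (gene 13078, chromosome 17, positions 79696282 to 79715330, minus strand), which oxidizes estrogens and aromatic hydrocarbons and whose human counterpart is mutated in congenital glaucoma, had 17, 40 and 146 counts in WT against 2, 3 and 3 in KO. Every KO library was at or under 3 counts, and WT was at least 21.1-fold higher in the mean (edgeR adjusted p = 3.30e-03), although the WT libraries differed widely among themselves and the bound was 8.76-fold without WT replicate 3. Cyp3a13 (gene 13113, chromosome 5, positions 137892933 to 137921619, minus strand), the second most abundant member in WT and a broad drug- and steroid-oxidizing enzyme, had 2796, 2369 and 2091 counts in WT against 1310, 1022 and 1852 in KO. The groups did not overlap and the log2 fold change was -0.68 (SE 0.201, edgeR adjusted p = 0.0167). The call for Cyp3a13 was lost without KO replicate 1 (-0.65, edgeR adjusted p = 0.0532) and without WT replicate 1 (-0.57, edgeR adjusted p = 0.0604). The other 3 members of family 3 (Cyp3a16, Cyp3a44 and Cyp3a59) stayed at or under 3 counts. Cyp20a1, whose substrate is unknown, had between 65.4 and 164 counts and overlapping groups (log2 fold change 0.27, SE 0.306).

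Among 14 sterol, steroid and vitamin D enzymes, 6 were tested, and 3 were higher and 3 lower in KO. This stands beside 31.8% higher and 30.2% lower among all genes tested, and Cyp24a1 passed the filter only through WT. Among the largest falls was that of Cyp24a1 (gene 13081, chromosome 2, positions 170482957 to 170497145, minus strand), the mitochondrial enzyme that inactivates vitamin D. Cyp24a1 had 227, 135 and 142 counts in WT against 3, 2 and 7 in KO, a change of -5.24 on the log2 scale (SE 0.403, edgeR adjusted p = 1.60e-05), and -5.89 without KO replicate 3. The gene of the vitamin D receptor, Vdr, was higher in KO, with 494, 548 and 489 counts in WT against 1377, 1180 and 1278 in KO (log2 fold change 1.43, SE 0.101, edgeR adjusted p = 1.02e-05). Cyp2r1 (gene 244209, chromosome 7, positions 114550123 to 114565621, minus strand), which performs the first step of vitamin D activation, had 148, 94 and 119 counts in WT against 59, 49 and 49 in KO (log2 fold change -1.09, SE 0.218, edgeR adjusted p = 2.63e-03). Cyp27b1, which performs the last step, had 0, 1 and 1 counts in WT against 4, 2 and 6 in KO and was too low for a test.

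Oxysterol and bile acid enzymes changed in both directions. Cyp7b1 (gene 13123, chromosome 3, positions 18071944 to 18243890, minus strand), an oxysterol hydroxylase, had 31, 51 and 25 counts in WT against 337, 411 and 504 in KO. The groups were far apart, by 3.65 on the log2 scale (SE 0.261, edgeR adjusted p = 1.09e-05). Cyp27a1 (gene 104086, chromosome 1, positions 74713146 to 74737897, plus strand), the mitochondrial sterol hydroxylase, had 308, 226 and 316 counts in WT against 505, 585 and 663 in KO, a change of 1.15 on the log2 scale (SE 0.160, edgeR adjusted p = 3.59e-04). Cyp39a1 (gene 56050, chromosome 17, positions 43667372 to 43751431, plus strand), another oxysterol hydroxylase and one of the most abundant members, had 1479, 1303 and 1210 counts in WT against 565, 641 and 688 in KO (log2 fold change -0.97, SE 0.107, edgeR adjusted p = 1.07e-04). Cyp17a1, an enzyme of androgen synthesis, was higher at a low level, with 12, 16 and 13 counts in WT against 38, 36 and 23 in KO (log2 fold change 1.34, SE 0.315, edgeR adjusted p = 5.82e-03). The other 8 members of this group had at most 15 counts in any library, the highest being Cyp46a1, the cholesterol hydroxylase of brain. They included Cyp7a1 and Cyp8b1 of bile acid synthesis and Cyp11a1, Cyp11b1, Cyp19a1 and Cyp21a1 of steroid synthesis.

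The 38 members without a test had at most 19.7 counts in any library. Of these, 20 stayed at or under 3 counts throughout, which does not show that they are absent. Above 3 counts, 8 were seen only in KO libraries, 2 only in WT libraries and 8 in both. The same split was not counted over all genes, so it is no result about the family. The 8 seen only in KO libraries were Cyp2b10, Cyp2c66, Cyp2d22, Cyp4a29, Cyp4a31, Cyp4a32, Cyp8b1 and Cyp27b1, and the 2 seen only in WT libraries were Cyp2g1 and Cyp4f14. Some stood at the cut, as Cyp4a31 reached 3.02 counts in KO and 2.46 in WT, and Cyp4f14 3.06 in WT and 2.14 in KO. Cyp4a32 and Cyp2c66 shared 43.8% and 19.5% of their windows with other genes, mostly with Cyp4a10 and Cyp2c65. The highest of them, Cyp4a32, had 0, 0 and 2.04 counts in WT against 9.08, 19.7 and 4.97 in KO. Both retinoic acid hydroxylases of the set were near the limit, with at most 6 counts for Cyp26a1 and at most 2 counts for Cyp26c1. Of 3 liver markers, Alb and Ttr stayed at or under 3 counts and Apoa1 reached at most 5 counts.

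Many of the members lie side by side in arrays of duplicated genes, and the position was compared with the direction of change. An array was taken as members on 1 chromosome with gaps of at most 1 Mb. On chromosome 4, 8 members lie within 405.6 kb (positions 115242084 to 115647705), of which 5 were tested. Cyp4a12a and Cyp4a12b at one side fell, and Cyp4a14, Cyp4a10 and Cyp4b1 at the other side rose, with 34.8 kb between Cyp4a12b and Cyp4a14. On chromosome 7, 10 members lie within 1356.1 kb (positions 25802476 to 27158564), where Cyp2s1 and Cyp2b19 fell and Cyp2f2, 347.3 kb from Cyp2b19, rose. Cyp2a5, which lies between Cyp2b19 and Cyp2f2, did not pass. On chromosome 17, 7 Cyp4f members lie within 441.0 kb (positions 32506430 to 32947472), Cyp4f39 having been left out of the set. Of 5 tested, 3 fell and none was called higher. Across all genes tested 62.0% differed (31.8% higher and 30.2% lower), and these counts are no result about an array.

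**Figure D4:**
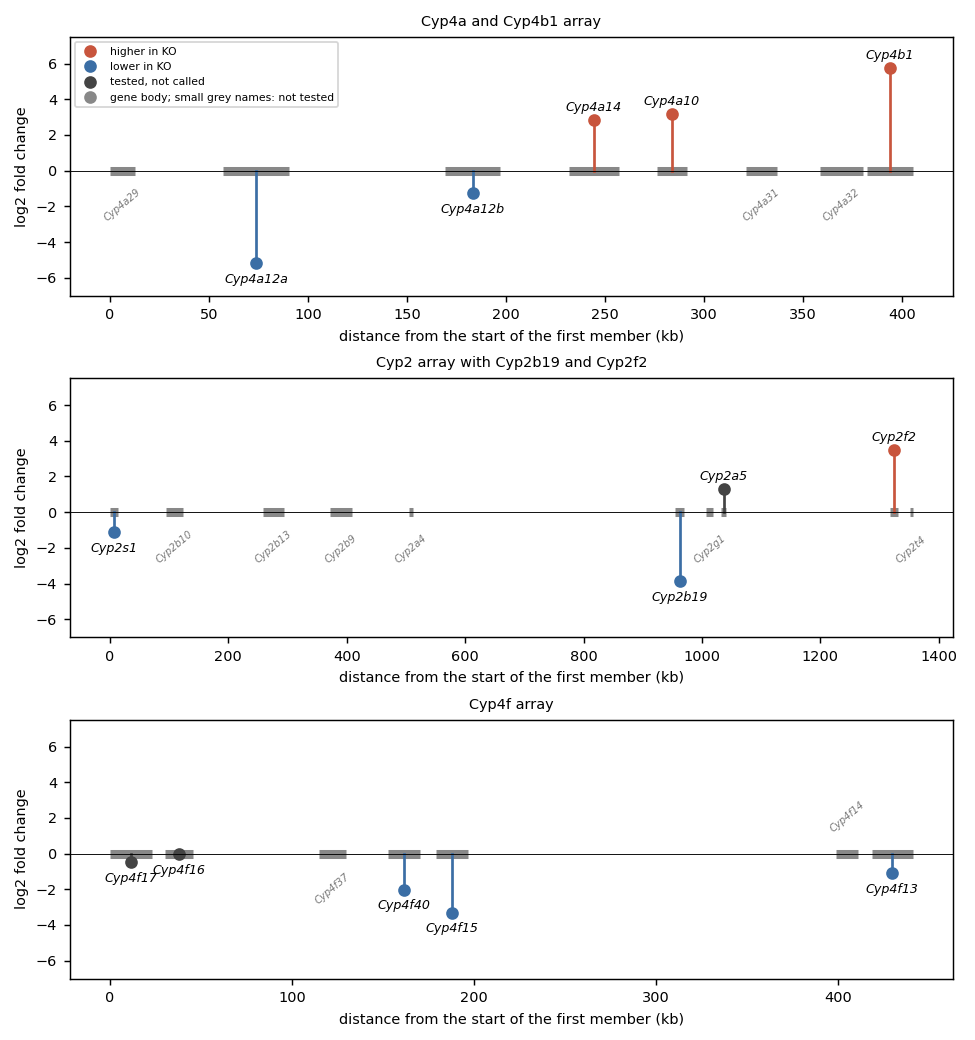
Log2 fold change of KO over WT against distance from the start of the first member (kb) in 3 arrays of Cyp genes, with gene bodies as grey bars, tested genes as stems and members that were not tested in small grey type. In the upper panel both Cyp4a12 genes point down and Cyp4a14, Cyp4a10 and Cyp4b1 point up, in the middle panel Cyp2b19 at -3.87 and Cyp2f2 at 3.48 point in opposite directions, and in the lower panel Cyp4f40, Cyp4f15 and Cyp4f13 point down.

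The promoter windows of 3 members that carried these contrasts are given here from RefSeq (GRCm38.p6), each with 250 bases before and 50 bases after the start of the gene, 5′ to 3′ on the gene's own strand. Cyp2b19 (chr7:26756892-26757191, plus strand) and Cyp2f2 (chr7:27119705-27120004, plus strand) belong to the same array and changed in opposite directions, and Cyp4b1 (chr4:115647672-115647971, minus strand) had one of the largest rises. Capitals mark the core of an NF-κB site on either strand, taken as GGG and CC with any 5 bases between them.
Cyp2b19: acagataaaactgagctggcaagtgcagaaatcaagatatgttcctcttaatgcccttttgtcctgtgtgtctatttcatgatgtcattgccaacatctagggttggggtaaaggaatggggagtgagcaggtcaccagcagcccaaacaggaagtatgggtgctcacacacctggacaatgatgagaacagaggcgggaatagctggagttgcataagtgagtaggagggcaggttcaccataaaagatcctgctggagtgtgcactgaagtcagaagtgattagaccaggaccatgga
Cyp2f2: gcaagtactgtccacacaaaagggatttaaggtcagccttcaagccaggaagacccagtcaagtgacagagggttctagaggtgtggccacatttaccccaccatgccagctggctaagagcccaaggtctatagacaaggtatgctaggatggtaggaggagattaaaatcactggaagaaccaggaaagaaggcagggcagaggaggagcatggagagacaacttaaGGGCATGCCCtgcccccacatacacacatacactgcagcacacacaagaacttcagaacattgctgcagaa
Cyp4b1: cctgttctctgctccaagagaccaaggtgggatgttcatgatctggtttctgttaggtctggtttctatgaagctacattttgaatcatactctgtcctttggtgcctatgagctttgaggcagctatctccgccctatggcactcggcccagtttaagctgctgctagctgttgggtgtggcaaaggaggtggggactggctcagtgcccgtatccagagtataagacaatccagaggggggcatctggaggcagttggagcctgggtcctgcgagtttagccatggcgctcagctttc

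The NF-κB core was found once in the Cyp2f2 window and not in the windows of Cyp2b19 and Cyp4b1. A window was at hand for 21 of the 30 tested members, and 15 of the 22 windows of these genes held the core (68.2%), beside 50.8% of all 32851 promoter windows. The core GCGTG of the aryl hydrocarbon receptor, searched on both strands, was in 7 of the 22 windows (31.8%) and in 32.4% of all windows. Cyp1b1 was among the 7. The PPAR direct repeat 1, allowing no mismatch, was in 0 of the 22 windows and in 0.0396% of all windows, and the letters TATAAA in 3 of the 22 and 13.6% of all windows. These motifs were counted independently and may overlap in a window, and a match of letters is not evidence of binding. No window was at hand for Cyp24a1, Cyp4a12a, Cyp4a12b, Cyp4a10, Cyp4a14, Cyp7b1, Cyp39a1, Cyp17a1 and Cyp4f17 among the tested members.

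Similarity between members limited some of the values above. Of the 30 tested members, 18 had counts that were not whole numbers in at least 1 library, as estimated counts can be. These included Cyp2w1 and Cyp3a13, which shared no window with another gene. Against the GENCODE M21 transcripts, 9 of the 30 shared no 50-base window with another gene, 15 shared under 10% of their windows and 6 shared at least 10%. These 6 were Cyp4a12b (49.4%), Cyp4a12a (48.9%), Cyp2a5 (37.0%), Cyp4a10 (29.8%), Cyp2c65 (20.6%) and Cyp4f16 (17.4%). The members with the other large changes were well separated, with 1.03% for Cyp24a1, 1.85% for Cyp2b19, 2.28% for Cyp4f15, 8.26% for Cyp4b1 and 0% for Cyp7b1 and Cyp1b1. Cyp2f2 shared 9% of its windows with Gm15883, and whether the counting used strand is not given in the sources used here.

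Genes that serve the P450 enzymes were compared as a list of 34, of which 30 were tested. Of these, 13 were higher and 11 lower in KO, beside 62.0% of all genes differing, and the median log2 fold change was 0.10 (0.01 for all genes tested). Among the electron donors, P450 oxidoreductase (Por) did not pass (6071, 6538 and 5800 counts in WT, 5752, 3916 and 4844 counts in KO, log2 fold change -0.23, SE 0.144). Cyb5a, Fdx1 and Fdx1l rose by 0.49, 0.44 and 0.41 on the log2 scale, Cyb5r3 and Cyb5b were lower with -0.67 and -0.31, and Fdxr did not pass (0.07, SE 0.177). In heme synthesis the steps moved in different directions. Alas1 and Cpox rose by 0.62 and 0.99 on the log2 scale, whereas Alad, Ppox, Uros and Fech were lower, with -1.60, -0.73, -0.72 and -0.42. Urod did not pass (-0.15, SE 0.125).

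The heme-degrading enzyme Hmox1 had 56, 98 and 49 counts in WT against 1112, 903 and 1002 in KO, a change of 4.0 on the log2 scale (SE 0.238, edgeR adjusted p = 4.25e-06). Hmox2 and Blvrb were also higher, with 0.29 and 0.76, and Blvra did not pass (0.12, SE 0.30). Of the membrane partners, Pgrmc1 was lower with -0.28, and Pgrmc2 did not pass (-0.01, SE 0.121). Among the regulators, Ahr (0.62), Vdr (1.43) and Ppard (0.56) were higher, Arnt (-0.31) and Ppara (-2.17) were lower, and Tiparp did not pass (0.14, SE 0.186). The groups overlapped for Ppard. Ahrr, Nr1i2, Nr1i3 and Pparg had too few counts for a test.

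All 4 genes listed as epoxide hydrolases differed between the genotypes, beside 62.0% of all genes tested. Epoxide hydrolases open the epoxides that P450 enzymes form, and the activity of the 4 products was not measured. Ephx2, which hydrolyses fatty acid epoxides, had 1327, 880 and 1128 counts in WT against 148, 257 and 237 in KO, a change of -2.27 on the log2 scale (SE 0.221, edgeR adjusted p = 5.39e-05). Ephx1, the microsomal enzyme for foreign compounds, was lower with -0.73 (SE 0.089). Ephx3 was higher with 1.10 (SE 0.096). Ephx4 had 0, 1 and 2 counts in WT against 127, 151 and 139 in KO, at least 50-fold higher in the mean. It passed the filter only through the KO libraries.

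**Figure D5:**
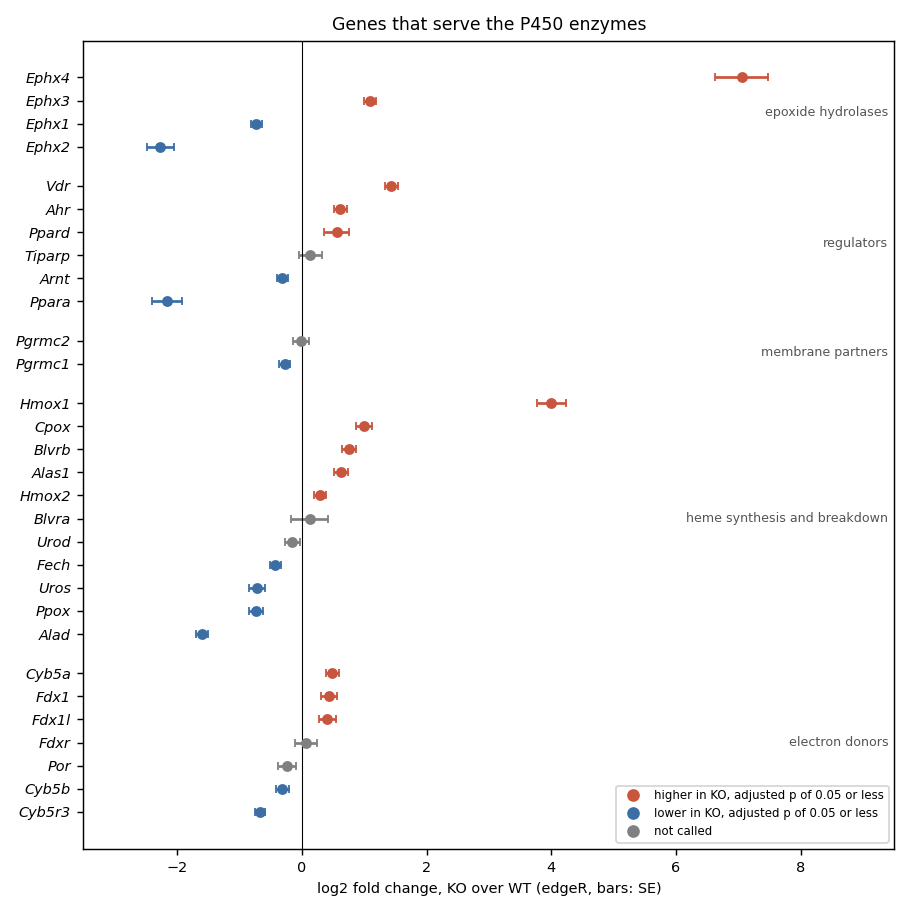
Log2 fold change of KO over WT with its standard error for the 30 tested genes that serve the P450 enzymes, in 5 groups, with genes called higher in red, lower in blue and not called in grey. Hmox1 at 4.0 and Ephx4 at 7.05 stand apart at the right, although Ephx4 was at or under 2 counts in WT, while Ephx2, Ppara and Alad lie farthest to the left.

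By the pathway annotation of the table, 28 members belong to arachidonic acid metabolism and 11 of them were tested. Of these 11, 5 were higher (Cyp2c65, Cyp2j6, Cyp4a10, Cyp4a14 and Cyp4f18), 5 lower (Cyp2b19, Cyp2j9, Cyp4a12a, Cyp4a12b and Cyp4f13) and Cyp2e1 did not pass. Of 25 members annotated to retinol metabolism, 9 were tested, 3 being higher and 5 lower. The 5 included Cyp4a12a and Cyp4a12b, which are hard to tell apart. The retinoic acid hydroxylases Cyp26a1 and Cyp26c1 were too low for a test. Of 6 members annotated to primary bile acid biosynthesis, 3 were tested, Cyp27a1 and Cyp7b1 being higher and Cyp39a1 lower. Across all genes tested 62.0% differed, and these counts are no result about a pathway.

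Markers of other cell types also differed between the genotypes, in both directions. The 4 markers of conjunctiva and mucosa were all higher in KO, with summed levels between 1873 and 2900 CPM in WT and between 52200 and 66920 CPM in KO, and the goblet cell mucin Muc5ac was at 0 in WT and at 141, 15 and 214 counts in KO. Of 6 sebaceous and meibomian gland genes, 5 were measured and 4 were higher, with summed levels of 7.82 to 11.0 CPM in WT and 62.2 to 80.0 CPM in KO. Most of the KO sum came from Mgst1 (39.1 to 59.1 CPM). Awat2 was at 14.0 to 15 counts in KO, and Soat1 did not pass. Of 6 stromal markers, 4 were tested, and Col1a1, Col1a2 and Dcn were higher and Pdgfra lower, with summed levels of 12.3 to 16.2 CPM in WT and 7.02 to 11.0 CPM in KO. Most of the WT sum came from Pdgfra, which went from between 10.9 and 15.6 CPM to between 1.05 and 1.40 CPM in KO. The sum therefore does not follow the 3 markers that were higher. Of the endothelial markers, Pecam1 was higher at 14 to 16 counts in KO and Kdr stayed at or under 3 counts. Of 3 melanocyte markers, Dct and Pmel were lower in KO, with summed levels of 7.37 to 9.65 CPM in WT and 5.16 to 5.32 CPM in KO. The nerve marker S100b stayed at or under 3 counts in every library. The part of these cell types in the Cyp values was not tested.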

How the data were processed

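Bulk RNA-seq of corneal epithelium was compared between 3 WT and 3 KO libraries. After rRNA depletion, single-end 50-base reads came from a BGI sequencer by the methods, though an Illumina kit is named in the labels. Reads were cleaned by the authors (SOAPnuke), aligned with Bowtie2 2.2.5 and estimated gene levels with RSEM 1.2.12 (submitters' processing notes). These notes name mm9, but the coordinates in the table are on GRCm38 sequence accessions, and all 68 members overlapped their RefSeq locus on GRCm38.p6. The deposited estimated counts, the deposited FPKM and the deposited TPM values are given per library, and TPM was not used. Each library column could be tied to 1 labelled sample. The authors' own fold changes and p-values (a DESeq2 comparison) were left unused.

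After rounding the estimated counts, edgeR 4.0.16 (R 4.3.3) was run with TMM scaling, filterByExpr, glmQLFit and glmQLFTest and a model of genotype alone, and p-values were adjusted by Benjamini-Hochberg across 13305 genes. Standard errors were taken as |log2 fold change| over the root of the F statistic. CPM were scaled by TMM, FPKM were used for levels between genes, and values are mean ± SD with n = 3 unless stated. A group at or under 3 counts (rounded) in every library was given a floor of 3 counts per library, and the fold as a lower bound from the mean of the other group. The p-values set the difference between the genotypes against the spread among these samples within a genotype, which was estimated partly from all genes.

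All tested members were named. Counts per library were given for members at the study threshold, for the 6 of highest mean FPKM, and for further genes chosen after their values were seen. The members and lists were chosen with earlier results of these data known. Alternatives were DESeq2 1.42.0, other scalings and filters, robust dispersion, limma 3.58.1 on log2(FPKM + 1) and log2(FPKM + 0.1), a replicate block and leaving out each library. Counting similar pairs as 1 gene was added after seeing the data. The fits were also run on simulated counts with the same spread for every gene, where only genes above a set mean count were changed. This does not cover members with few or widely varying counts. A partner gene and some markers are not reported here. Windows of 50 bases were compared exactly, on both strands, with GENCODE M21 transcripts, which may differ from the transcripts the authors used. Promoter windows were at hand for 50 members. Python 3.11.15, pandas 2.3.3, numpy 2.4.6 and matplotlib 3.10.9 were used.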

Additional observations from a re-analysis of the deposited data

How the results depend on the processing

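Of the 24 members called, 23 kept their direction and their call in each of the 15 alternative fits that gave them a value, the exception being Cyp3a13. Of the 6 members not called, Cyp2a5, Cyp2w1 and Cyp4f17 were called under at least 1 alternative. Leaving out 1 library in turn gave between 23 and 25 members at an adjusted p of 0.05, where 31 or 32 were tested. It gave between 8 and 13 members at the study threshold, and between 18 and 23 partner genes. All libraries gave 24, 16 and 24, where 30 members were tested. The share of all counts held by the members lay between 0.128% and 0.139% in WT and between 0.0781% and 0.0894% in KO in the same series, and the log2 fold change of Rela kept its call throughout. Members with at least 10 counts in each library of 1 group numbered 29, beside 48 above 3 counts in any library. With the filter moved, 18 members were called at a mean count of at least 50, where 23 were tested, and 29 with no filter, where 68 were tested. DESeq2 called 28, where 68 members were in the fit and 50 had an adjusted p. The share of all genes called is not given for these alternatives, so their counts are no result about the family. The sign of Cyp4f16 turned positive at a mean count of at least 50 (0.0079), without KO replicate 2 (0.029) and without WT replicate 2 (0.049), with a range of -0.075 to 0.049 when 1 library was left out, and the cause was not tested.

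The titles use the replicate numbers 1 to 3 in both genotypes, and nothing in the labels ties equal numbers to 1 animal or batch. The deviations of equally numbered libraries from their group means correlated at 0.0345, -0.00998 and 0.0606, and those of unequally numbered libraries at between -0.159 and 0.123. Deviations within a group are tied to each other through the group mean, so these values cannot decide whether the numbers mark pairs. The numbers were not taken as pairs in the main model. With the number as a replicate block, 26 members were called at an adjusted p of 0.05, 15 at the study threshold and 23 partner genes, and Rela was called as before. Cyp2a5 (adjusted p = 6.48e-04, edgeR) and Cyp4f17 were gained under the block. Depth limits the members under about 10 counts, whose fold changes rest on few reads.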
